A study of Mus musculus with 6 samples.

Results

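Receptors on the surface of islet cells adjust insulin secretion to hormones, nutrients and nerves, and 10 of their genes were examined in the islets of diabetic db/db animals and their db/m littermates. The receptors were Glp1r, Gipr, Gcgr, Ffar1, Gpr119, Adra2a, Sstr3, Galr1, Chrm3 and Prlr, chosen by gene symbol from the 44713 genes of the count table. Of these, 9 encode G protein-coupled receptors (GPCRs). Prlr, the prolactin receptor, is a single-pass cytokine receptor that signals through JAK2 and STAT5, so that the name GPCR does not cover it.

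RNA was sequenced from the islets of 3 db/db and 3 db/m mice after removal of ribosomal RNA. All were male, 10 weeks old and kept on a normal diet, and their islets had been released with collagenase and purified on a Histopaque density gradient. The db/db mice carried the Lepr mutation on both chromosomes, given as Lepr-/- in the sample labels, and became obese and diabetic. The db/m mice served as controls and are called wild type in the labels, although a db/m mouse carries a single mutant copy. The labels gave C57BL/6 as the strain of both groups, whereas the study's methods gave a BKS background. The mutation is present in every tissue of these mice, so that the comparison covers the mutation together with obesity and diabetes.

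A β-cell receptor changes insulin secretion through the G protein that it binds. Receptors coupled to Gs, such as those for the incretins GLP-1 and GIP, raise cAMP and strengthen secretion once glucose has started it. Receptors coupled to Gq release calcium from internal stores and also strengthen secretion. Receptors coupled to Gi, such as those for adrenaline, somatostatin and galanin, lower cAMP and hold secretion back. Prolactin acts through its own receptor on β-cell growth, best known from pregnancy.

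Between 15641797 and 20614531 reads were counted on genes in each library. Expression is given as normalised read counts as CPM (counts relative to library size), scaled between libraries with the trimmed mean of M-values (TMM) of edgeR, and 3 reads in a library correspond to 0.146 to 0.192 CPM before that scaling. Lepr itself had 4, 10 and 68 reads in the db/db libraries and 37, 25 and 8 in the db/m libraries, which overlapped. The db mutation alters splicing of the long form, so that reads summed over the gene do not check the genotype. The libraries held much exocrine RNA. A list of 25 acinar genes took 72.5%, 67% and 66.6% of the reads in the db/db libraries and 51%, 63.2% and 66% in the db/m libraries. Ins1 and Ins2 together, the defining β-cell markers, took 0.121%, 0.502% and 0.407% in db/db and 3.75%, 0.605% and 0.649% in db/m. The libraries numbered 1 stood farthest apart on both measures. The db/db replicate 1 had the lowest value of its group for 8 of the 10 receptors, and db/m replicate 1 had the highest value of its group for 9 of them.

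All 10 receptors had at least 1 read in each of the 6 libraries. With at least 5 reads required, 8, 10 and 9 receptors were detected in the db/db libraries and all 10 in each db/m library. The counts below 5 were those of Gipr with 2 reads and Ffar1 with 4 reads in db/db replicate 1, and of Gpr119 with 2 reads in db/db replicate 3. Together the 10 receptors had 721, 1684 and 1225 reads in the db/db libraries and 10319, 3385 and 2700 in the db/m libraries. In CPM with TMM scaling these sums were 57.9, 100.7 and 82.4 in db/db against 379, 197 and 146 in db/m, and the groups did not overlap. In RNA of whole islets, fewer cells of a type and less RNA per cell cannot be told apart.

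**Figure D1:**
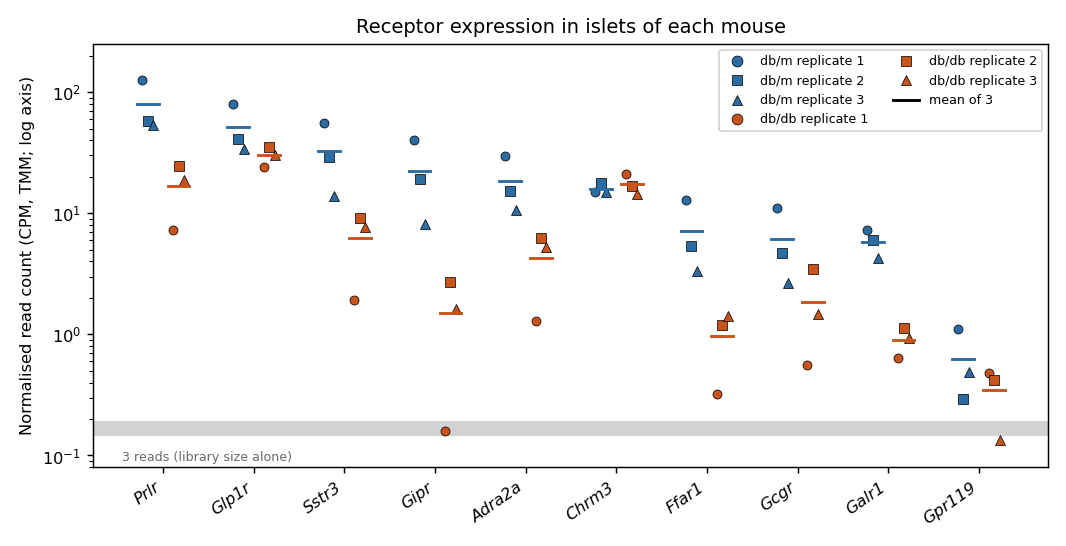
Normalised read count (CPM with TMM scaling, log axis) of each receptor in each of the 6 mice, with db/m in blue, db/db in orange and a line at the mean of 3; the grey band marks 3 reads in CPM before TMM scaling. The db/db points lie below all db/m points for Prlr, Sstr3, Gipr, Adra2a, Ffar1 and Galr1, whereas the groups overlap for Glp1r, Chrm3, Gcgr and Gpr119.

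To compare levels between receptors, CPM were divided by the length of the longest curated RefSeq transcript. In db/m islets Glp1r had the highest level, 34.9 ± 16.5 CPM per kilobase (SD, n = 3), and its range of 23.1 to 53.7 lay above that of every other receptor. Gipr followed with 12.6 ± 9.14 CPM per kilobase (SD, n = 3). Sstr3 (8.21), Ffar1 (7.96), Prlr (7.68), Chrm3 (5.05), Adra2a (4.97), Gcgr (3.16) and Galr1 (2.03) came next in mean CPM per kilobase, and neighbours in this row overlapped. Gpr119 was lowest with 0.276 ± 0.186 CPM per kilobase (SD, n = 3), below the lowest Galr1 library.

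The order differed in db/db islets. Glp1r was again highest with 20.3 ± 3.69 CPM per kilobase (SD, n = 3), and Chrm3 stood next with 5.50 ± 1.03 (SD, n = 3), without overlap with its neighbours on either side. Prlr (1.63), Sstr3 (1.56), Adra2a (1.15), Ffar1 (1.08), Gcgr (0.952) and Gipr (0.831) formed a row in which neighbours overlapped, followed by Galr1 (0.316) and Gpr119 (0.152). Gipr thus stood at rank 2 in db/m and rank 8 in db/db. The ranks depended on the length used, which ran from 903 bases for Ffar1 to 10328 for Prlr. With all annotated exons merged, Gipr stood at rank 6 in db/m and rank 9 in db/db. Glp1r stayed highest and Gpr119 lowest in both groups, while every other rank in db/m changed. Ffar1 then stood at rank 2 there, Prlr at rank 3 and Adra2a at rank 5. In CPM without division by length, the db/m mean of Prlr was above that of Glp1r (79.3 against 51.7).

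**Figure D2:**
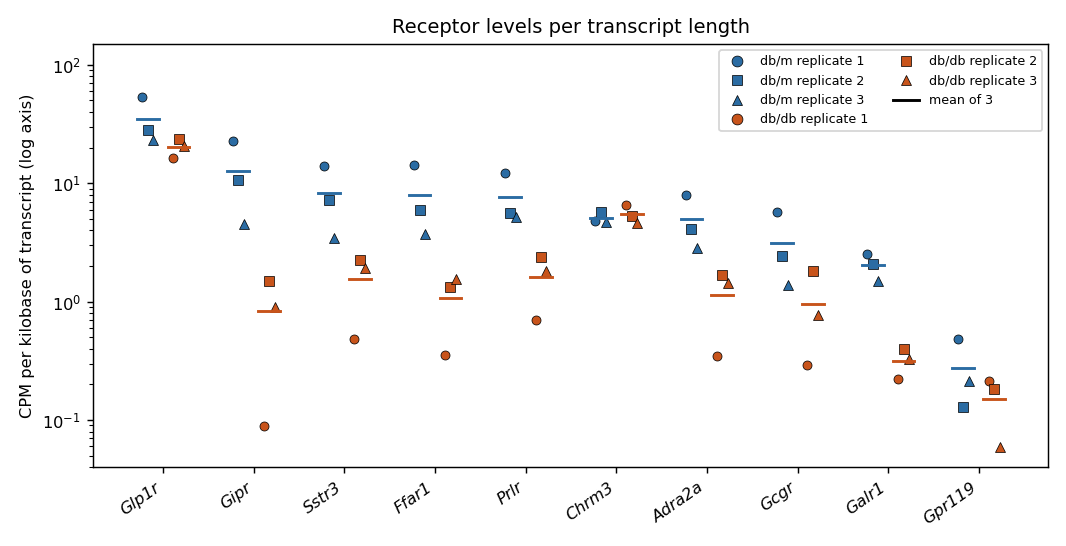
Receptor levels in CPM per kilobase of the longest curated RefSeq transcript (log axis) in each mouse, ordered by the db/m mean. Glp1r is highest in both groups, and Chrm3 moves from rank 6 in db/m (5.05) to rank 2 in db/db (5.50), while the means of the other receptors are lower in db/db.

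The db/db and db/m libraries were then compared with the quasi-likelihood test of edgeR over all 12760 genes that passed its filter on low counts. Of the 10 receptors, 9 were tested, and Gpr119 failed the filter. Of the 9, Galr1 alone fell at an adjusted p under 0.05, a call that 0.486% of all tested genes reached as lower in db/db. At an unadjusted p under 0.05, 8 of the 9 were lower in db/db, against 9.89% of all tested genes, and the exception was Chrm3. The 3 db/db values lay below the 3 db/m values for 6 of the 9, against 12.6% of all tested genes. The median log2 fold change of the 9 receptors was -2.24, beside -0.00093 for all tested genes. The count of calls depended on the tool and the filter. DESeq2 called 6 of the 10 receptors, against 4.24% of its genes, and edgeR without the filter called 7, against 3.78%.

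The incretin receptors differed in how far apart the groups lay. Gipr, the receptor for the gut hormone GIP, had 2, 45 and 24 reads in the db/db libraries and 1100, 328 and 151 in the db/m libraries. In CPM these were 0.161, 2.69 and 1.61 in db/db and 40.4, 19.1 and 8.18 in db/m. Every db/db value was below every db/m value, and the 2 reads of db/db replicate 1 were under the floor of 3. The mean was 1.49 ± 1.27 CPM in db/db and 22.6 ± 16.4 in db/m (SD, n = 3), a log2 fold change of -3.88 (SE 0.78), which did not pass after adjustment (edgeR adjusted p = 0.0661). The size of the difference depended on the libraries numbered 1. Without them it was -2.61, with an adjusted p of 0.0627 from edgeR. Gipr lies on chromosome 7 from 19156063 to 19170248 on the minus strand of GRCm38.

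Glp1r, the receptor for GLP-1 and the target of the GLP-1 analogues used in diabetes therapy, had 303, 589 and 454 reads in the db/db libraries and 2165, 710 and 631 in the db/m libraries. In CPM these were 24.3, 35.2 and 30.5 in db/db and 79.5, 41.4 and 34.2 in db/m. The db/m replicate 1 stood far above the other 5 libraries, and the groups overlapped. The log2 fold change was -0.78 (SE 0.34, unadjusted p = 0.0448, edgeR adjusted p = 0.320). It was -0.16 without the libraries numbered 1 (edgeR adjusted p = 0.868). Glp1r spans 30901867 to 30936510 on the plus strand of chromosome 17.

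Gcgr, the receptor through which glucagon raises hepatic glucose output and also acts on β cells, had 7, 58 and 22 reads in db/db and 299, 80 and 49 in db/m. Its levels of 0.562, 3.47 and 1.48 CPM in db/db overlapped the 10.97, 4.66 and 2.65 CPM in db/m. The log2 fold change was -1.71 (SE 0.67, edgeR adjusted p = 0.280), and -0.51 without the libraries numbered 1 (edgeR adjusted p = 0.775). Gcgr lies on the plus strand of chromosome 11 from 120529185 to 120538989.

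Among the receptors for lipids, Ffar1, the Gq-coupled receptor for long-chain fatty acids, had 4, 20 and 21 reads in db/db and 350, 92 and 62 in db/m. Its levels were 0.321, 1.20 and 1.41 CPM in db/db and 12.9, 5.36 and 3.36 CPM in db/m. The groups did not overlap, and the log2 fold change was -2.85 (SE 0.63, edgeR adjusted p = 0.0819). Without the libraries numbered 1 it was -1.69 (edgeR adjusted p = 0.161). In RefSeq, Ffar1 is a gene of 1 exon on chromosome 7 from 30860568 to 30861470 on the minus strand.

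Gpr119, a Gs-coupled receptor for oleoylethanolamide and related lipids, was close to the limit of detection with 6, 7 and 2 reads in db/db and 30, 5 and 9 in db/m. At this depth no difference was detectable. Tested without the filter, its log2 fold change was -0.87 (SE 0.94, edgeR adjusted p = 0.725). Gpr119 lies on chromosome X from 48667979 to 48674478.

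Galr1, Adra2a and Sstr3, the Gi-coupled receptors examined here, hold insulin secretion back. They were lower in each db/db mouse than in each db/m mouse, as were Gipr, Ffar1 and Prlr, which are not of this class. Galr1, a receptor for the neuropeptide galanin, had 8, 19 and 14 reads in db/db and 197, 103 and 79 in db/m. Its levels were 0.642, 1.14 and 0.942 CPM in db/db and 7.23, 6.00 and 4.28 CPM in db/m. The 3 mice of each group lay close together, with means of 0.907 ± 0.249 and 5.84 ± 1.48 CPM (SD, n = 3). Galr1 fell 6.35-fold, with a log2 fold change of -2.67 (SE 0.39, edgeR adjusted p = 0.0246). The call did not hold when any library other than db/m replicate 3 was left out, with adjusted p from 0.0613 to 0.131 in edgeR. Without TMM factors the adjusted p was 0.104, and without the libraries numbered 1 the log2 fold change was -2.25 with an adjusted p of 0.0702 from edgeR. Galr1 lies on chromosome 18 from 82392496 to 82406777.

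Adra2a, the adrenergic receptor through which adrenaline and noradrenaline stop insulin release, had 16, 104 and 79 reads in db/db and 805, 263 and 197 in db/m. Its levels were 1.28, 6.22 and 5.31 CPM in db/db and 29.6, 15.3 and 10.7 CPM in db/m. The groups did not overlap, and db/db replicate 1 stood well below the other db/db libraries. The log2 fold change was -2.10 (SE 0.55, edgeR adjusted p = 0.120), and -1.13 without the libraries numbered 1 (edgeR adjusted p = 0.174). Adra2a is a gene of 1 exon on chromosome 19 from 54045259 to 54048982.

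Sstr3, a somatostatin receptor of the β-cell primary cilium, had 24, 152 and 115 reads in db/db and 1523, 497 and 257 in db/m. Its levels were 1.93, 9.09 and 7.73 CPM in db/db and 55.9, 28.9 and 13.9 CPM in db/m, again without overlap. The log2 fold change was -2.39 (SE 0.61, edgeR adjusted p = 0.116), and -1.31 without the libraries numbered 1 (edgeR adjusted p = 0.185). Sstr3 lies on the minus strand of chromosome 15 from 78537014 to 78549365.

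Chrm3, the Gq-coupled muscarinic receptor through which acetylcholine strengthens insulin secretion, was the exception at an unadjusted p under 0.05. It had 261, 280 and 216 reads in db/db and 412, 308 and 275 in db/m. In CPM these were 20.95, 16.7 and 14.5 in db/db and 15.1, 17.9 and 14.9 in db/m, and the groups were interleaved. The log2 fold change was 0.12 (SE 0.23, edgeR adjusted p = 0.837), and it was -0.49 with library size in place of TMM, where the median of all genes was -0.59. Acinar cells also carry this receptor, which drives enzyme secretion there, and with TMM scaling Chrm3 was highest in db/db replicate 1, the library with the largest acinar share, whereas without that scaling it was lowest there (12.7 CPM). With a score of the acinar genes as a covariate, its log2 fold change was -0.0015. The part of acinar cells in the Chrm3 values was not tested. Chrm3 lies on chromosome 13 from 9875486 to 10361062 and shares 104 exon bases with Gm26861 on the other strand, and how strand was treated in the counting is not given in the sources used here.

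Prlr, the prolactin receptor, had the largest number of reads of the 10 receptors in each db/m library, with 3438, 999 and 990, and 90, 410 and 278 reads in the db/db libraries. Its levels were 7.23, 24.5 and 18.7 CPM in db/db and 126, 58.2 and 53.6 CPM in db/m. All db/db values were below all db/m values. The mean was 16.8 ± 8.80 CPM in db/db and 79.3 ± 40.7 in db/m (SD, n = 3), with a log2 fold change of -2.24 (SE 0.49, edgeR adjusted p = 0.0819). Without the libraries numbered 1 the log2 fold change was -1.33 (edgeR adjusted p = 0.0702). Prlr lies on the plus strand of chromosome 15 from 10177238 to 10349190.

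Without both libraries numbered 1, the median log2 fold change of the 9 receptors was -1.31, beside 0.018 for all tested genes, and 0 were called by edgeR. DESeq2 was not run on these 4 libraries. In that comparison 6 of the 9 were lower at an unadjusted p under 0.05, against 6.02% of all tested genes. The 6 whose groups did not overlap kept a negative log2 fold change in each of the 17 other settings tried, as did Gcgr, whereas Glp1r and Chrm3 took both signs.

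The summed levels of pan-endocrine and β-cell genes were likewise lowest in db/db replicate 1 and highest in db/m replicate 1, and the receptor levels were therefore also set against those genes. A list of 24 genes shared by all endocrine islet cells, such as the granins, summed to 421.5 to 1393 CPM in db/db and 1183 to 4034 CPM in db/m. Of these, 15 were lower at an unadjusted p under 0.05 in edgeR, and the median log2 fold change was -1.27. The 19 genes of the β-cell list summed to 3269 to 7106 CPM in db/db and 8570 to 26640 CPM in db/m. Of these, 16 were lower at an unadjusted p under 0.05 in edgeR, with a median log2 fold change of -2.35. Over all tested genes 9.89% were lower at that threshold. The α-cell list summed to 312 to 605 CPM in db/db and 201 to 1301 CPM in db/m, and the δ-cell list to 42.1 to 101.5 CPM and 36.2 to 260 CPM, so that their lowest libraries were db/m replicates. With a score of the acinar genes as a covariate, the log2 fold changes of all 9 tested receptors were closer to 0. They were -2.65 for Gipr, -2.29 for Galr1, -1.75 for Ffar1, -1.42 for Prlr, -1.30 for Sstr3, -1.21 for Adra2a, -0.52 for Gcgr and -0.14 for Glp1r. The first pair of these were called by edgeR, in a fit where 100 of all 12760 tested genes were called in either direction. The acinar share of the reads was higher in each db/db library than in each db/m library, so that the covariate was not independent of group. The part of the α-cell and δ-cell lists in the receptor differences was not tested.

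**Figure D3:**
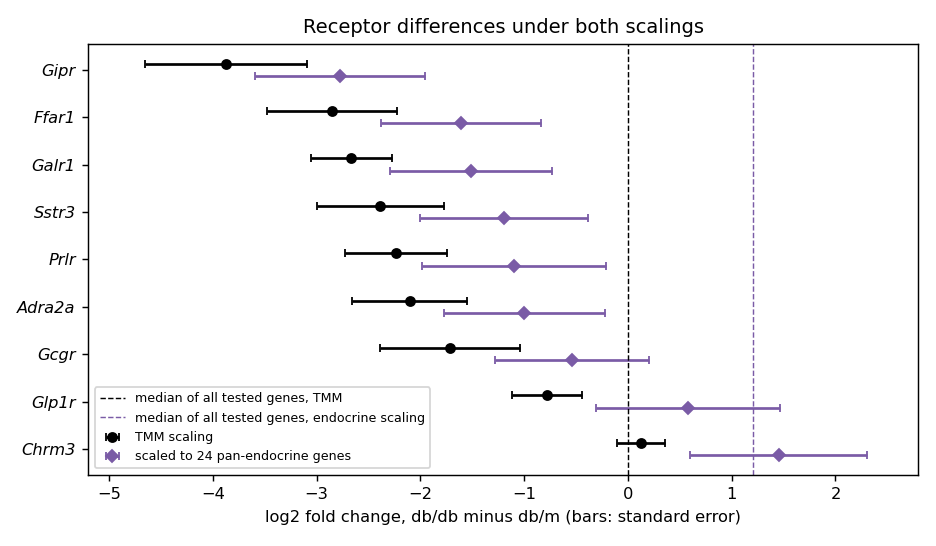
Log2 fold change (db/db minus db/m) of the 9 tested receptors with standard errors, under TMM scaling (black) and after scaling to 24 pan-endocrine genes (purple); dashed lines give the median of all tested genes under each. Gipr lies farthest to the left under both scalings (-3.88 and -2.78), and Glp1r changes sign from -0.78 to 0.58.

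Scaled to the 24 pan-endocrine genes in place of TMM, the median of all tested genes lay at a log2 fold change of 1.20. On this scale 0 of the 9 receptors passed in edgeR, where 1.11% of all tested genes passed in either direction, and 2 were lower at an unadjusted p under 0.05, against 1.21% of all tested genes. DESeq2 was not run on this scale. The pair with an unadjusted p under 0.05 was Gipr, with a log2 fold change of -2.78 (SE 0.82, edgeR adjusted p = 0.0563), and Ffar1, with -1.61 (SE 0.77, edgeR adjusted p = 0.221). Glp1r was at 0.58 (SE 0.88) and Chrm3 at 1.45 (SE 0.85). The plot of log2 fold changes gives both scales side by side.

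The same comparison was made for single mice, as log2(CPM + 0.5) of a receptor minus the mean over the 24 pan-endocrine genes in the same library, and tested by exact permutation (two-sided, 0.1 being the lowest p in this design). Levels near the added 0.5, as those of Gipr, Ffar1, Gcgr and Galr1 in db/db, depend on it, and Gpr119, which had failed the filter on low counts, was left out of the plot. Gipr stood at -3.54, -2.75 and -2.95 in db/db and at -0.46, -0.63 and -1.08 in db/m. The groups were well apart, with a difference of -2.36 (p = 0.1, exact permutation test). Differences of Sstr3 (-1.15), Ffar1 (-1.10), Prlr (-1.08) and Adra2a (-0.91) also came from groups that did not overlap (each p = 0.1, exact permutation test). How many of all tested genes did not overlap on this scale was not computed. Galr1 differed by -0.98 and overlapped (p = 0.2, exact permutation test), as did Gcgr with -0.32, Glp1r with 0.49, Gpr119 with 0.80 and Chrm3 with 1.29. With 0.1 added in place of 0.5, the difference was -2.89 for Gipr, -1.52 for Ffar1 and -1.34 for Galr1 (each p = 0.1, exact permutation test). Without the libraries numbered 1 it was -1.53 for Galr1, 0.14 for Glp1r and 0.26 for Chrm3.

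Against the mean of the 19 β-cell genes the picture was different for most receptors. Prlr (0.05), Ffar1 (0.03), Sstr3 (-0.02), Galr1 (0.15) and Adra2a (0.22) overlapped between the groups on the log2 scale, with exact permutation p from 0.4 to 1. Gipr remained below, at -4.04, -2.88 and -3.28 in db/db and -2.01, -1.75 and -2.73 in db/m, a difference of -1.23 (p = 0.1, exact permutation test). Glp1r was above, at 1.20, 0.61 and 0.60 in db/db and -1.04, -0.66 and -0.74 in db/m, a difference of 1.61 (p = 0.1, exact permutation test). Gcgr (0.81), Chrm3 (2.41) and Gpr119 (1.93) were likewise above in each db/db mouse (each p = 0.1, exact permutation test). Gpr119 was close to the limit of detection, so that its value depends on the added 0.5. The values of Gipr, Ffar1, Gcgr and Galr1 against this reference depend on it as well. A smaller added value was not tried against the β-cell genes. The share of all tested genes without overlap against this reference was not computed either. The reference itself, the mean over the β-cell genes, differed by -2.31 between the groups, and that over the pan-endocrine genes by -1.18.

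**Figure D4:**
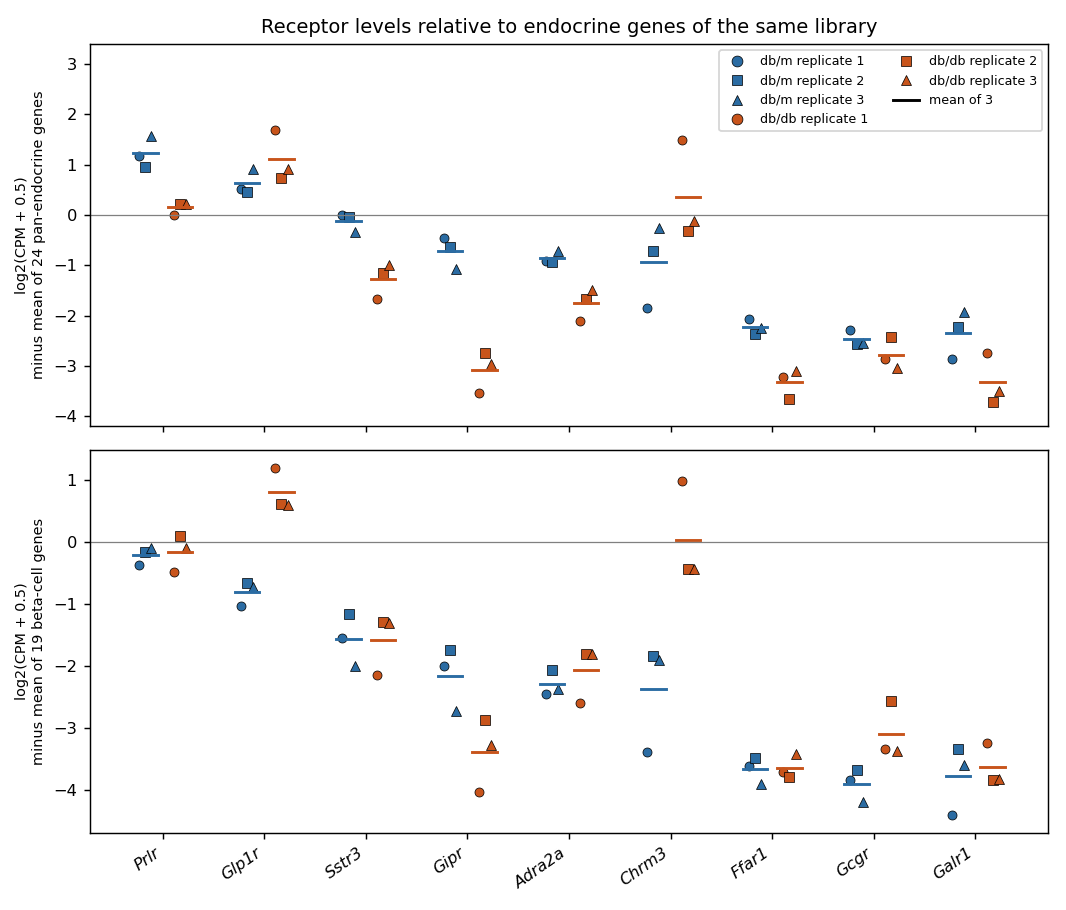
Receptor level, as log2(CPM + 0.5), minus the mean of 24 pan-endocrine genes (top) or of 19 β-cell genes (bottom) in the same library, for each mouse with the mean of 3. Gipr in db/db lies below db/m in both panels (differences of -2.36 and -1.23), Glp1r lies above db/m in the lower panel (1.61), and Prlr, Ffar1, Sstr3 and Adra2a are apart in the upper panel and overlap in the lower.

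A measure that needs no scaling between libraries is the share of each receptor among the reads of all 10 in a library, computed after the counts had been seen. Glp1r took 42%, 35% and 37.1% of these reads in the db/db libraries and 21%, 21% and 23.4% in the db/m libraries. Gipr took 0.277%, 2.67% and 1.96% in db/db and 10.7%, 9.69% and 5.59% in db/m. The groups did not overlap for either receptor (p = 0.1, exact permutation test). Counting error was small beside these differences, with Clopper-Pearson intervals (95%) from 32.7% to 45.7% for Glp1r over the db/db libraries and from 19.6% to 25% over the db/m libraries.

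Shares of Prlr (12.5% to 24.3% in db/db, 29.5% to 36.7% in db/m), Ffar1, Adra2a, Sstr3 and Galr1 were also lower in each db/db mouse. The share of Chrm3 was higher, at 16.6% to 36.2% in db/db and 3.99% to 10.2% in db/m (p = 0.1, exact permutation test). Gcgr and Gpr119 overlapped. Shares within a library add up to a whole, so that these differences are not independent of each other. Such shares were not computed for other sets of genes, so that no background stands beside them. The part of the acinar share of each library in these differences was not tested.

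**Figure D5:**
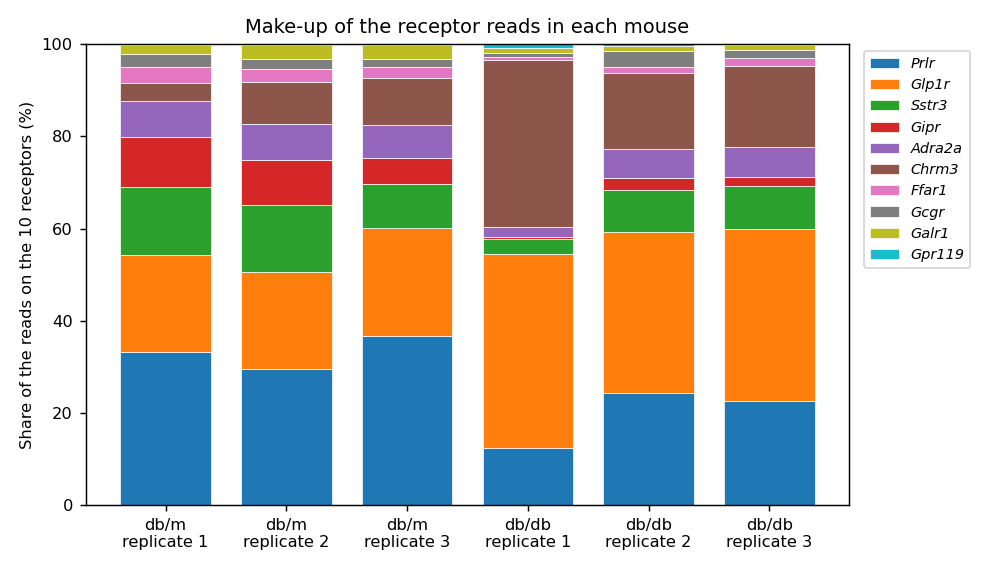
Share of each receptor (%) in the reads of all 10 receptors, 1 bar per mouse, with 721, 1684 and 1225 such reads in the db/db libraries and 10319, 3385 and 2700 in the db/m libraries. Glp1r (orange) takes 35% to 42% in db/db and 21% to 23.4% in db/m, while Gipr (red) takes at most 2.67% in db/db and at least 5.59% in db/m.

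Promoter windows, with 250 bases before and 50 after the start, were taken from the RefSeq table of GRCm38.p6 for 8 of the 10 receptors. Galr1 was left out beforehand by its chromosome, and for Gipr no window was found. For Prlr the table held 3 windows, of which that at the start of the gene is shown. The stretches outside annotated exons are shown for Glp1r, the receptor with the highest level per kilobase. They are also shown for Prlr and Ffar1, which were lower in each db/db mouse. Sstr3, also lower in each db/db mouse, had such a stretch that is not shown. They run 5′ to 3′ on the strand of the gene, from chr17:30901617-30901816 on the plus strand for Glp1r, chr15:10176988-10177237 on the plus strand for Prlr and chr7:30861565-30861720 on the minus strand for Ffar1. For Glp1r and Ffar1 an annotated exon lay between the stretch and the RefSeq start of the gene. Whether transcription begins at that start was not tested. Capitals mark matches on either strand to CANNTG (the E-box that Neurod1 and related factors bind), TGACG (the core of the cAMP response element) or TAAT (the homeobox core), with no match overlapping another.
Glp1r: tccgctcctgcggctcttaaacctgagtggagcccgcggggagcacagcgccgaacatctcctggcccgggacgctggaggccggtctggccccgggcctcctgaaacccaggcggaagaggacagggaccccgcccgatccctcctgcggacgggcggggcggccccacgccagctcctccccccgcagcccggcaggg
Prlr: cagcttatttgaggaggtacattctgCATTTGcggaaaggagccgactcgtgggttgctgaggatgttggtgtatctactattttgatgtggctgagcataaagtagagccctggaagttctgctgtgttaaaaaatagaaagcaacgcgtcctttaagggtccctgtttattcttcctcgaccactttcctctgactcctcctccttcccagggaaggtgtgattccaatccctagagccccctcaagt
Ffar1: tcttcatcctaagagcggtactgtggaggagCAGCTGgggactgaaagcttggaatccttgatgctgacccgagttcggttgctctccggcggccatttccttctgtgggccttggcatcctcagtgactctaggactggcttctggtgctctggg
The Glp1r stretch had a GC content of 75% and none of these letters, this Prlr stretch 48% and 1 E-box, and the Ffar1 stretch 57.1% and 1 E-box. The Sstr3 stretch of 250 bases had a GC content of 55.6% and, like that of Glp1r, no match. The stretches of the other Prlr windows, from 10223656 to 10223818 and from 10293401 to 10293650, held 1 E-box with 1 TGACG and 6 TAAT, at a GC content of 39.3% and 32.8%. The median GC content of all windows was 52.7%. Over the 11 windows taken, with Galr1 and Gipr not among them, 8 held CANNTG, 4 TGACG and 2 TAAT. Of all 32851 windows, 72.3%, 20.8% and 58% did.

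Most of the nearest relatives of the receptors were sparse in these libraries. Of 17 relatives, among them the other somatostatin, galanin, muscarinic, α2-adrenergic and free fatty acid receptors, 10 had at most 6 reads in each library, and 3 of these (Sstr5, Galr2 and Chrm5) had no reads. Among the 7 tested, 1 was lower at an unadjusted p under 0.05 and 0 were higher in edgeR. Over all tested genes these shares were 9.89% and 5.04%. The lower gene was Ffar3, a receptor for short-chain fatty acids, with 8, 4 and 0 reads in db/db and 106, 22 and 22 in db/m (log2 fold change -2.89, adjusted p = 0.202 from edgeR). Sstr2, the somatostatin receptor prominent on α cells, was named after its values were seen. It had 44, 119 and 38 reads in db/db and 41, 45 and 78 in db/m, with a log2 fold change of 0.67 (edgeR adjusted p = 0.558), beside -2.39 for Sstr3. Ghr, the growth hormone receptor and relative of Prlr, likewise named after its values were seen, had 1003, 1436 and 1070 reads in db/db and 1988, 1257 and 1314 in db/m (log2 fold change 0.13, adjusted p = 0.805 from edgeR). The difference between the changes of 2 relatives was not tested.

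A wider list of 67 other receptors of the islet held 39 tested genes. Of these, 1 was called lower by edgeR, 7 were lower and 2 higher at an unadjusted p under 0.05, beside 9.89% and 5.04% of all tested genes, and the median log2 fold change was -0.29. The called gene was Gpr158, long classed as an orphan receptor, with 11, 37 and 28 reads in db/db and 585, 230 and 104 in db/m (log2 fold change -3.01, SE 0.53, adjusted p = 0.0472 from edgeR). It was not called without the libraries numbered 1. P2ry1, a Gq-coupled receptor for ADP, had 29, 74 and 90 reads in db/db and 1040, 653 and 209 in db/m (log2 fold change -2.77, adjusted p = 0.0565 from edgeR). Gabbr1, a subunit of the GABA-B receptor, had a log2 fold change of -1.31, the calcium-sensing receptor Casr -1.63, and Gpr142, a receptor for tryptophan, -1.82 (adjusted p from 0.203 to 0.295 in edgeR).

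Of the pair with positive values, S1pr2, a receptor for sphingosine 1-phosphate, had 57, 46 and 49 reads in db/db and 46, 9 and 31 in db/m (log2 fold change 1.43, adjusted p = 0.230 from edgeR). Ptger3, a Gi-coupled receptor for prostaglandin E2, had 168 ± 50.0 CPM in db/db and 84.1 ± 39.4 in db/m (SD, n = 3, edgeR adjusted p = 0.271).

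Ligands of the receptors and the signalling genes behind them were taken from lists of 13 and 63 genes. Of the 63 tested genes of both lists, 3 were called lower by edgeR, against 0.486% of all tested genes. At an unadjusted p under 0.05, 22 were lower and 1 higher, against 9.89% and 5.04%, and the median log2 fold change was -0.72. Prkd1, a kinase (protein kinase D1) downstream of Gq-coupled receptors, had 27, 45 and 45 reads in db/db and 567, 253 and 159 in db/m, and fell with a log2 fold change of -2.48 (SE 0.36, edgeR adjusted p = 0.0246). Pcsk1, the convertase that cleaves proinsulin, fell with a log2 fold change of -2.77 (edgeR adjusted p = 0.0414), from 89.0 ± 48.9 CPM in db/m to 13.02 ± 5.44 in db/db (SD, n = 3). Pclo, a scaffold of the secretory machinery that also takes part in cAMP-dependent exocytosis, fell with a log2 fold change of -1.79 (edgeR adjusted p = 0.0453). Pcsk1 is also on the β-cell list, and the 3 calls were not made with scaling to the pan-endocrine genes.

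Further along the cAMP pathway, the phosphodiesterase Pde10a had a log2 fold change of -2.74, the Gi-family subunit Gnao1 -2.44, the regulatory subunit of protein kinase A Prkar2b -2.60 and the exocytosis protein Rims2 -2.14 (adjusted p from 0.0670 to 0.0902 in edgeR). Vip, a neuropeptide that acts through Gs-coupled receptors, had 16, 0 and 1 reads in db/db and 487, 73 and 205 in db/m (edgeR adjusted p = 0.0778). A list of 7 Schwann cell and neuronal genes summed to 2.15 to 2.57 CPM in db/db and 5.79 to 15.9 CPM in db/m, and its part in the Vip difference was not tested. Of the ligands of the 10 receptors, Gcg, which encodes glucagon and GLP-1, had a log2 fold change of -0.51 (adjusted p = 0.736), Sst, which encodes somatostatin, -0.73 (adjusted p = 0.675) and Gal, which encodes galanin, 0.05 (adjusted p = 0.943), all from edgeR. Gal and Dpp4, the enzyme that breaks down the incretins, with 0.49 (edgeR adjusted p = 0.688), were named after their values were seen.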

How the data were processed

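Islet RNA depleted of ribosomal RNA was sequenced from 3 db/db and 3 db/m mice. The authors mapped the reads to mm10 (TopHat in the study's methods, HISAT2 2.0.4 in the submitters' processing notes) and deposited raw read counts per gene symbol, without normalization, 1 column per mouse. The counter, the annotation and the use of strand are not given in the sources used here. Library totals were 15641797 to 20614531 counts, and intervals (Clopper-Pearson, 95%) cover counting error only.

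The 10 receptors, the gene lists and the rules for naming genes were chosen with earlier results of these data known. In the lists, the 10 receptors were named in full, and up to 8 genes each from the other receptors and from the ligands and signalling genes were named by unadjusted p under 0.05 and a mean of 1 CPM or more. All genes were fitted with edgeR 4.0.16 under R 4.3.3 (filterByExpr, TMM, quasi-likelihood F-test, Benjamini-Hochberg adjustment over 12760 genes, threshold 0.05), the pipeline having been tested on simulated data. The standard error is the log2 fold change over the square root of F. The study's methods name DESeq, and DESeq2 1.42.0 was an alternative. The sources name mice and do not describe separate preparations, so that p-values measure the spread between these samples. No library was a copy of another, as counts within a group gave chi-square values of 26.5 to 147 per degree of freedom. Alternatives were library size alone, other size factors, scaling to 24 endocrine genes, other filters, the replicate number as a block, an acinar score (mean log2(CPM + 1)) as covariate, and leaving out mice. Leaving out both libraries numbered 1, and shares of receptor reads, were chosen after seeing the data. Transcript lengths, positions and promoters came from RefSeq (GRCm38.p6), and figures were drawn with matplotlib 3.10.9.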

Additional observations from a re-analysis of the deposited data

How the results depend on the processing

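The count of 1 called receptor was 0 with library size alone, with scaling to the endocrine genes, with the replicate block and without both libraries numbered 1, 2 with the acinar score as a covariate, 6 in DESeq2, 7 with every gene that had a count, and 0 to 3 when a mouse was left out. The 1 called gene among the other receptors became 0 with library size alone, upper-quartile factors, DESeq2 size factors in edgeR, genes holding 1% of a library left out, the replicate block and the libraries numbered 1 left out, 3 in DESeq2, 5 with every gene that had a count, and 0 to 2 when a mouse was left out. The 3 called ligand and signalling genes became 0 with library size alone, scaling to the endocrine genes and the replicate block, 1 with upper-quartile factors, 11 in DESeq2, 16 with every gene that had a count, and 0 to 10 when a mouse was left out. The cause of these shifts was not tested.

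Same-numbered mice had correlations of -0.51, -0.15 and -0.32 between their deviations from the group means. These values cannot show whether the numbers pair the mice, as the libraries numbered 1 lay at opposite ends of the acinar share. With the replicate block, 16 genes were called in all, against 79 without it, and Galr1 had a log2 fold change of -2.66 with an adjusted p of 0.133 (edgeR). Over all genes the count was 21 with library size alone, 100 with the acinar score as a covariate, 888 with every gene that had a count, 664 in DESeq2, and 10 to 333 when a mouse was left out.

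Of 153 receptor values under alternatives, 125 kept their sign and their side of the threshold, 14 passed it anew, 9 no longer passed it (each for Galr1) and 5 changed sign. Glp1r was at 0.58 with scaling to the endocrine genes. Chrm3 was at -0.49 with library size alone, -0.0015 with the acinar score as a covariate, -0.023 to 0.25 when a mouse was left out (lowest without db/db replicate 1) and -0.028 without the libraries numbered 1. Of the 10 receptors, 7 stood lower relative to the pan-endocrine genes, also when any mouse was left out, and 2 did relative to the β-cell genes. With the acinar score as a covariate, Gipr was at -2.65 (edgeR adjusted p = 0.0457). Its adjusted p ranged from 7.9e-10 to 0.250 over the 17 alternatives. Counts in single digits limit what can be read of Gpr119 and of Gipr and Ffar1 in db/db replicate 1.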

Other observations

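The incretin receptors were also set against each other within a library, as Glp1r reads per Gipr read, a measure that was chosen after the counts had been seen and that no scaling between libraries affects. Glp1r had 152, 13.1 and 18.9 reads per Gipr read in the db/db libraries and 1.97, 2.16 and 4.18 in the db/m libraries. The groups did not overlap (p = 0.1, two-sided exact permutation test, with no lower p within reach), as they did not for the read ratios of 22 of the 45 receptor pairs. The first of these rested on 2 Gipr reads, and its interval (95%) ran from 41.6 to 1.26e+03. Glp1r reads per Ffar1 read were 75.8, 29.4 and 21.6 in db/db and 6.19, 7.72 and 10.2 in db/m. Glp1r reads per Chrm3 read were 1.16, 2.1 and 2.1 in db/db and 5.25, 2.31 and 2.29 in db/m, with medians of 2.10 and 2.31. The log2 ratio differed by -0.81 without overlap (p = 0.1, exact permutation test), and the libraries numbered 1 lay farthest apart. In replicates 2 and 3 the intervals (95%) overlapped, with 1.78 to 2.48 in db/db and 1.99 to 2.65 in db/m. These ratios share their numerator, and they cannot tell apart more Glp1r from less of the other receptor. The part of the acinar share, largest in db/db replicate 1, in these ratios was not tested.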
